A study of Mus musculus with 3 samples.

Results

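The 219 genes described here are the protein-coding mouse genes to which at least 5 separate Runx1 ChIP-seq regions were assigned in the third of 3 spinal cord replicates. Regions were counted as distinct combinations of chromosome, start and end in the authors' annotated peak table of replicate 3, by the gene that the table gives for each region. The 219 genes made up 3.16% of the 6934 coding genes with at least 1 region in that replicate and 1.00% of the 21900 coding genes of the RefSeq annotation. They held 1459 of the 10419 regions assigned to coding genes, out of 13194 regions in all. The genes were chosen by their number of regions in replicate 3, so that replicate's numbers of regions, spans, location classes and folds are a description, and only the values of replicates 2 and 1 were not used in the choice.

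Chromatin immunoprecipitation and sequencing (ChIP-seq) was run with a rabbit polyclonal antibody against Runx1 on spinal cord cells of male C57BL/6J mice aged 8 to 10 weeks, in a study whose title concerns Runx1 in microglia and opioid analgesia and withdrawal. After perfusion of the mice, cells of 5 cords at a time were pooled and fixed, and their chromatin was cut with micrococcal nuclease and sonicated. About 10 µg of chromatin pooled from 10 cords met 9 µg of antibody in each immunoprecipitation. All 3 replicates carried the same genotype and no labelled treatment, formed 1 group, and are not said to come from separate sets of animals. No sort by cell type is named in the protocol, so a region carries no mark of the cell type it came from. The replicates had 13194, 1641 and 451 regions in replicates 3, 2 and 1, with median folds of 3.81, 4.01 and 4.86, and replicate 3 thus stood apart by its number of regions. Neither read totals nor the control library is known from the labels, so depth is unknown.

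Runx1 belongs to the Runt family of transcription factors. It works with its partner Cbfb, recognises the letters TGTGGT, and is known for its roles in blood stem cells and in myeloid cells, the lineage to which microglia belong. A ChIP-seq region, or peak, is a stretch where the immunoprecipitated reads pile up over a background estimate, and the fold given here is the authors' ratio of pileup to background at the strongest summit of the region. A gene collects several regions when separate stretches along it are called, or when 1 broad stretch is broken into pieces by the peak caller. The authors' tables give each region 1 transcript, with its gene and the distance to its start. A region has no strand, so genes that share a start cannot be told apart.

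Promoter sequences of members covered by a region in replicates 3, 2 and 1 are shown first, because these stretches were found every time. RefSeq promoter windows (GRCm38.p6) run from 250 bases before to 50 bases after an annotated start. Of the 310 windows of member genes, 10 were overlapped in all 3 replicates, at Zeb2, Bahcc1, Irf2bp2, Tmeff2, Atf7ip, Brinp3, D1Ertd622e, Ptp4a1, Rcbtb1 and Wscd1. The first 4 of these are printed 5′ to 3′ along the gene's strand, with every CG dinucleotide in capitals. Zeb2 lies at chr2:45110228-45110527 on the minus strand, Bahcc1 at chr11:120232697-120232996 on the plus strand, Irf2bp2 at chr8:126593937-126594236 on the minus strand and Tmeff2 at chr1:50927273-50927572 on the plus strand.
Zeb2: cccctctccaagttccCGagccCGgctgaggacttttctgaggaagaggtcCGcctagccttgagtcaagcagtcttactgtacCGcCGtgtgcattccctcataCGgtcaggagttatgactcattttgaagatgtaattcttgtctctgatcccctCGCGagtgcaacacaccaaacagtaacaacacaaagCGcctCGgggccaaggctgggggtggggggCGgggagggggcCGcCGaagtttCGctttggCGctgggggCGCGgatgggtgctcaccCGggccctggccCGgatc
Bahcc1: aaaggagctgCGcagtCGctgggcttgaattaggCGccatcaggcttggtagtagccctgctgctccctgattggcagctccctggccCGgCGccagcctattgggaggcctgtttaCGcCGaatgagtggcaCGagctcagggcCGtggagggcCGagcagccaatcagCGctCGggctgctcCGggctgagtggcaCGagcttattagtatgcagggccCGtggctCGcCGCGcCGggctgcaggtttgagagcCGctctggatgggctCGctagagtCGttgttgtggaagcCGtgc
Irf2bp2: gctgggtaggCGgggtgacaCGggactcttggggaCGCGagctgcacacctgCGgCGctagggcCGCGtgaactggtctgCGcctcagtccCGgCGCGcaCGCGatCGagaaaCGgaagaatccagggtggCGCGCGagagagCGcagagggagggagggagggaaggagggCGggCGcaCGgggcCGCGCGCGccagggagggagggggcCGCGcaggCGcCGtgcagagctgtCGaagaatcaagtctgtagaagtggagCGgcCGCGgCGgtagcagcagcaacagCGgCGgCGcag
Tmeff2: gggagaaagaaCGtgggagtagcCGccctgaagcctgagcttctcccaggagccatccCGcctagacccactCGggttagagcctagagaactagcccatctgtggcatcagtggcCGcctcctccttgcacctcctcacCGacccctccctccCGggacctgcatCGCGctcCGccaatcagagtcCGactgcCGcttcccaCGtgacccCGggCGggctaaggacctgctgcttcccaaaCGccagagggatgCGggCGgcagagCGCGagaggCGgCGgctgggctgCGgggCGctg
The windows held 19 CG dinucleotides at Zeb2, 23 at Bahcc1, 39 at Irf2bp2 and 24 at Tmeff2, and their GC content was 60.7%, 64.7%, 71.7% and 67.7%. The median over the 10 windows was 32.5 CG dinucleotides and 69.0% GC, against 15 and 58.7% over the 310 member windows and 13 and 56.3% over the 21263 windows of all coding genes. Windows overlapped in replicate 3 had medians of 21 and 62.7% for members and 23 and 62.0% for genes with 1 to 4 regions. Part of the difference was thus shared by covered windows of other genes.

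The Runx core letters were then read in the same windows. The search was for TGTGGT and its reverse complement ACCACA, on either strand, with no overlap to another motif searched. They occurred in 0 of the 10 windows covered in all replicates, for which the 95% Wilson interval reaches 27.8%, and in 5 of the 32 windows covered in replicates 3 and 2 (15.6%, interval 6.86% to 31.8%), at Aatk, Amotl2, Eml1, Gpr37 and Nfix. Windows of Gpr37, a receptor gene of oligodendrocytes, at chr6:25689931-25690230 on the minus strand, and of Nfix, a nuclear factor I gene, at chr8:84772826-84773125 on the minus strand are printed with the matching letters in capitals.
Gpr37: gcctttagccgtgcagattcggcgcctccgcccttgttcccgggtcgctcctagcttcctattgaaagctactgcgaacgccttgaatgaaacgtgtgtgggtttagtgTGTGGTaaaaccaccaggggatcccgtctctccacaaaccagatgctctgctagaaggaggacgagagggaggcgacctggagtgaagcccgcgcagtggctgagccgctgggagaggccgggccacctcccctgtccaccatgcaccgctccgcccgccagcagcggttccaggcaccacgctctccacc
Nfix: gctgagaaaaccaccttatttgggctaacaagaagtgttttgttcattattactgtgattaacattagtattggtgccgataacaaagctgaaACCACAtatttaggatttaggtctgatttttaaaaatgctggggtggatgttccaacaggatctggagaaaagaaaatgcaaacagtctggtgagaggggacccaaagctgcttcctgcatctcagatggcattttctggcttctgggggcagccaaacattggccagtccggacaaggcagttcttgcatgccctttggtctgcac
Among all member windows 41 of 310 (13.2%, interval 9.90% to 17.5%) held the letters, beside 11.7% of windows of genes with 1 to 4 regions, 16.7% of windows of coding genes with none and 15.0% of all coding windows. The member share lay within the range of the other sets. A match is a string of letters and not a measured site, and a window without one says only that these 6 letters are not in those 300 bases.

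The number of regions per gene fell off steeply beyond the limit of 5. Of the 219 genes, 103 had exactly 5 regions, 97 had 6 to 9 and 19 had 10 or more, up to 40 at Zeb2. Just outside the limit, 181 genes had 4 regions. The genes at 5 regions had a median strongest fold of 5.90, between 3.51 at Cdk5r1, an activator of the kinase Cdk5, and 18.1 at Rgs3, a regulator of G-protein signalling, and a median span of 38.0 kb. The genes at 4 regions had a median strongest fold of 5.53, between 3.19 at Hmgcs1, an enzyme of sterol synthesis, and 18.4 at Ski, a corepressor of SMAD signalling, and a median span of 22.5 kb. No gap separated the genes on either side of the limit. Rgs3 had 0 regions in replicates 2 and 1.

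**Figure D1:**
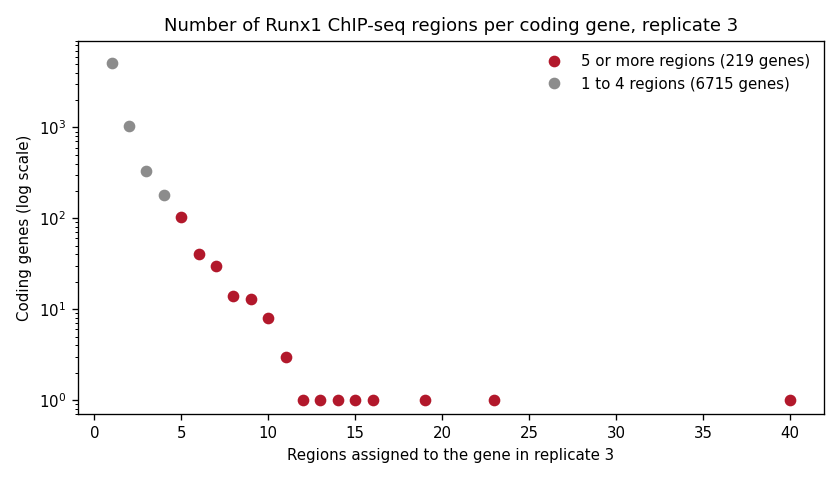
Number of coding genes (vertical axis, log scale) by number of regions assigned to the gene in replicate 3 (horizontal axis); red points are the 219 genes with 5 or more regions and grey points the 6715 genes with 1 to 4. The counts drop to 103 genes at 5 regions and to 1 gene at 40 regions.

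Zeb2 and Tcf4, both transcription factor genes, had the most regions. Zeb2 (ENSMUSG00000026872), which encodes a zinc finger homeobox repressor of neural crest and glial development, had 40 regions in replicate 3, 10 in replicate 2 and 2 in replicate 1. The 40 regions ran over 118.1 kb of chromosome 2, beside a RefSeq gene length of 133.9 kb. By the authors' classes 24 were intronic, 6 lay within 1 kb of a transcript start, 6 at 1 to 3 kb, 2 in exons and 2 in a 3' UTR. The strongest, chr2:45102847-45117879 in GRCm38, was 15033 bp wide with 37 summits and a fold of 15.4. It overlapped 7 regions of replicate 2, not all of them assigned to Zeb2. The strongest of those assigned to Zeb2 lay at 45107399 to 45112433 with a fold of 8.32. The same stretch held both Zeb2 regions of replicate 1, at 45108662 to 45108936 and 45110248 to 45110773, with folds of 3.70 and 4.54. All 10 Zeb2 regions of replicate 2 overlapped a Zeb2 region of replicate 3 by at least 1 bp, though not all of them lay wholly inside one.

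Other transcription factor genes were covered in different ways. Tcf4, a basic helix-loop-helix factor, had 23 regions over 293.1 kb in replicate 3, 6 in replicate 2 and 0 in replicate 1, and its regions stayed far apart, with 12 separate blocks left after joining regions under 5 kb from each other. Ebf3, a helix-loop-helix factor of neuronal differentiation, had 14 regions within 26.2 kb, which joined into 1 block at 5 kb, and 4 regions in replicate 2. The 8 regions of Nfia, a nuclear factor I gene of glial fate, had a median fold of 6.09, and its strongest promoter region and an intronic region were each found again. The promoter region had folds of 9.01, 4.34 and 4.65 and the intronic one 9.11, 3.30 and 4.10 in replicates 3, 2 and 1. Bcl11a, a zinc finger repressor with 9 regions and a strongest fold of 4.14, had 0 regions in replicates 2 and 1. Of the 118 genes listed for nuclear factor I, TCF and other widely used factors, 88 had a region, beside 6934 of 21900 coding genes. Members were 15 of the 118 (12.7%), beside 1.00% of all coding genes. This list and those below were chosen with earlier results of these data known, and the values for all coding genes are not matched for gene length. Their shares are therefore a description.

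The Hox clusters contributed 5 of 39 genes (12.8%, beside 1.00% of all coding genes), at Hoxb3, Hoxd3, Hoxb6, Hoxa10 and Hoxb8. Hox genes encode the homeodomain factors that set position along the body axis, and they stay packed in clusters. Hoxb3 had 11 regions in replicate 3 and 6 in replicate 2, Hoxd3 8 and 1, and Hoxb6, Hoxa10 and Hoxb8 had 7, 5 and 5 with 0 assigned in replicate 2; no Hox member had a region assigned in replicate 1. Hoxb6 and Hoxb8 lay 6.78 kb apart by their outermost regions, and Hoxb3 and Hoxb6 19.6 kb, so these members are neighbours and not independent. The assignment matters here, because the Hoxa10 region of 26649 bp on chromosome 6 held 4 regions of replicate 2 and 1 of replicate 1 that the tables assign to Hoxa7 and Hoxa9. Among 63 other homeobox genes 4 (6.35%, beside 1.00%) were members (Zeb2, Tshz1, Pbx3 and Prox1). Among 17 SOX genes 9 had a region, beside 6934 of 21900 coding genes. None of the 17 was a member, a count too small to set against the 1.00%, which comes to less than 1 gene.

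Chromatin regulator genes gave 9 members of 102 (8.82%, beside 1.00%). Bahcc1, which encodes a bromo-adjacent homology protein of chromatin, had 6 regions with a strongest fold of 15.2 over a stretch of 13282 bp at its promoter, and 3 and 2 regions in replicates 2 and 1. Arid5b, a DNA-binding subunit of a histone demethylase complex, had 7 regions and 1 in replicate 2. Smarca2, an ATPase of the SWI/SNF remodelling complex, had 7 regions that all lay within 1 kb of a transcript start, with a strongest fold of 3.88 in replicate 3 and a fold of 4.76 for its region in replicate 2. Arid1b, another SWI/SNF subunit, had 6 regions within 8.48 kb and none in replicates 2 and 1.

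Among the 14 gene lists, that of oligodendrocytes and myelin had the largest share of members. The lists were chosen with earlier results of these data known and were not matched for gene length, so this ranking is a description. Of 48 such genes, 46 had a region in replicate 3, beside 6934 of 21900 coding genes. Members were 11 of the 48 (22.9%), beside 1.00% of all coding genes and 3.16% of those with a region. The 11 included Qk, Mbnl2, Mbp, Cldn11, Ugt8a, Gpr37, Mobp, Opalin, Sgk1 and Fa2h. Regions in replicate 2 were found for 9 of the 11 (all but Mbnl2 and Ugt8a), beside 54.3% of all members, and in replicate 1 for 0 of the 11, beside 11.4%. Qk, an RNA-binding protein needed for myelination, had 19 regions over 127.5 kb with a strongest fold of 14.3, and 3 regions in replicate 2 with a highest fold of 7.17. The myelin basic protein gene Mbp had 12 regions within 38.9 kb, which began 74.1 kb into the RefSeq gene of 110.5 kb and ran past its end, over the part that holds the starts of its short myelin transcripts. Its strongest region, 7406 bp wide with a fold of 12.99, held 3 of its 5 regions of replicate 2, whose folds were 4.39 to 5.37.

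Some other myelin genes had compact groups of regions and some did not. Cldn11, the claudin of myelin tight junctions, had 9 regions within 17.4 kb, and its strongest, with a fold of 13.7, was classed as distal intergenic and was overlapped in replicate 2 with a fold of 4.80. Mobp, a myelin-associated basic protein, had 7 regions within 13.4 kb and 2 in replicate 2. Gpr37 had 8 regions, 6 of them intronic, and 4 in replicate 2. By contrast Ugt8a, the enzyme that makes the galactolipids of myelin, had 8 regions over 115.5 kb, 4 of them distal intergenic, with a strongest fold of 8.00 and 0 in replicate 2. The 5 regions of Sgk1, a serum- and glucocorticoid-regulated kinase, ran over 118.3 kb, with 3 in replicate 2. In replicate 1, which had 351 regions of coding genes in all, none was assigned to a myelin member.

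RNA-binding genes added Mbnl1 and Celf2 to Qk and Mbnl2, with Hnrnpa2b1, to make 5 members of 44 (11.4%, beside 1.00%). Mbnl2 and Mbnl1 encode muscleblind splicing factors. Mbnl2 had 16 regions with a strongest fold of 7.74 and 0 regions in replicates 2 and 1. Mbnl1 had 10 with a strongest fold of 8.53 and 2 regions in replicate 2, of which 1 overlapped a Mbnl1 region of replicate 3. Mbnl2 was the member with the most regions that had none elsewhere.

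Signalling and adhesion genes gave 10 members of 88 (11.4%, beside 1.00%). Smad7, the inhibitory SMAD of TGF-beta signalling, had 13 regions over 68.8 kb, 3 in replicate 2 and 3 in replicate 1, and was the member with the most regions in replicate 1. Its strongest region, 7925 bp wide at the promoter, had a fold of 13.1, and the highest folds there in replicates 2 and 1 were 6.45 and 4.47. Pde4b, a cAMP phosphodiesterase, had 15 regions over 352.4 kb, 11 of them intronic, and 4 in replicate 2. Fgfr2, a fibroblast growth factor receptor, had 10 regions and 1 in replicate 2. Pcdh17, a protocadherin, had 10 regions within 16.4 kb, which joined into 1 block at 5 kb, and 0 in replicates 2 and 1.

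Neuronal genes gave 7 members of 75 (9.33%, beside 1.00%). Ptprd, a receptor tyrosine phosphatase of synapses, had 9 regions over 1786 kb, and Dlg2, a postsynaptic scaffold, had 6 over 1840.3 kb, the widest span of all members. Pde4d, Lrp1b and Lrrc4c spanned 1203 kb, 1215 kb and 1162 kb with 9, 5 and 5 regions, and these were the 5 spans over 1000 kb. Of these, Lrrc4c, a netrin-G ligand, had 3 regions in replicate 2, Ptprd and Pde4d 1 each, and Dlg2 and Lrp1b 0. The Lrrc4c region of replicate 2 at 96318707 to 96319090 overlapped no region of replicate 3. Ncam1, the neural cell adhesion molecule, had 8 regions and 1 each in replicates 2 and 1, with strongest folds of 8.86, 4.12 and 5.76 in replicates 3, 2 and 1. Ank3, an ankyrin of the axon initial segment, had 9 regions and 1 in replicate 2. The cytoskeleton list had 7 members of 48 (14.6%, beside 1.00%), among them Dst, a cytoskeletal linker, with 8 regions in replicate 3 and 1 in replicate 2, and Sept7, a septin, with 5 and 3. The Dst region of replicate 2 overlapped no region of replicate 3.

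The lists for microglia, astrocytes, endothelium and lysosomes had 0 or 1 members, counts too small to set against the 1.00% of all coding genes, a share that comes to less than 1 gene in each of these lists. None of 47 microglia and macrophage genes was a member. In replicate 3, 11 of the 47 (23.4%) had any region, beside 6934 of 21900 coding genes. That background also applies to the counts of genes with a region given below. Among the defining microglia markers, Sall1 had 3 regions, while Cx3cr1, P2ry12, Tmem119, Csf1r, Trem2 and Aif1 had 0 in every replicate. All 10 oligodendrocyte markers had a region, 43 in all, with Mbp and Mobp among the members, and all 6 neuron markers had one, 12 in all, with Map2 as a member. Of 6 astrocyte markers 3 had a region, 3 in all, and of 6 endothelial and mural markers 0 had one. The astrocyte list gave 1 member of 30 (Nfia), the endothelial list 0 of 25 and the list of lysosome and autophagy genes 0 of 40, although 35 of these 40 had a region. A region is not a measure of RNA, and the share of each cell type in the chromatin was not measured.

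Member genes were long. Their median RefSeq length was 111.7 kb over the 218 that matched, against 27.0 kb for genes with 1 to 4 regions and 17.1 kb for all coding genes. The share of coding genes that were members was 0.277% under 10 kb (22 genes), 0.325% at 10 to 30 kb (21), 1.10% at 30 to 100 kb (56), 4.17% at 100 to 300 kb (78) and 7.36% at 300 kb or more (41 of 557). Short members exist too, such as Marcks, a substrate of protein kinase C with 5 regions within 4.32 kb, and Fos, an immediate early transcription factor of 3.38 kb with 6 regions over 33.0 kb. What part of each count length accounts for was not tested.

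Spans and gaps varied widely among the members. The span from the first to the last region had a median of 53.4 kb and ran from 3.49 kb at Ube2h, a ubiquitin-conjugating enzyme, to the 1840.3 kb of Dlg2. The next narrowest were Slc12a5, the neuronal potassium-chloride cotransporter, at 4.14 kb, Marcks, Il1rapl1, a synaptic receptor gene of 1375 kb, at 4.87 kb, and Tsc22d2 at 5.10 kb. Regions covered a median of 4.38 kb per gene, and the median over genes of the median gap was 2.25 kb. When regions under 1 kb apart were joined, 89 genes (40.6%) still had 5 or more blocks, and at 5 kb 34 (15.5%) had them while 38 (17.4%) became 1 block. Zeb2 with 40 regions formed 16 blocks at 1 kb and 6 at 5 kb. Hoxb6, Hoxb8, Il1rapl1, Slc12a5, Marcks and Ube2h each formed 1 block at 1 kb already. For 130 of 218 matched members every region overlapped the RefSeq gene by at least 1 bp, as did 1290 of 1454 regions (88.7%). Some of these regions ran past the end of the gene.

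**Figure D2:**
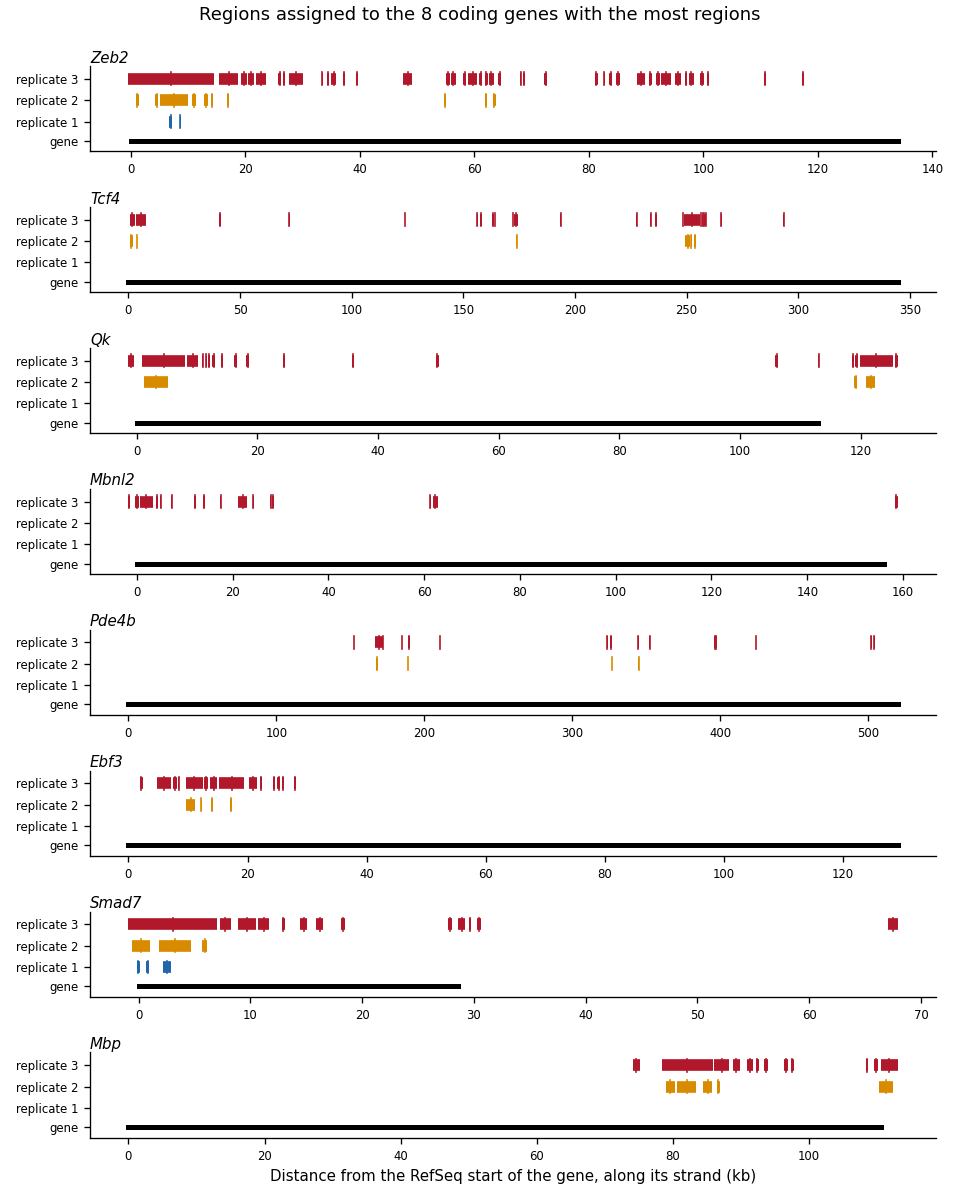
Regions assigned to the 8 coding genes with the most regions, by distance in kb from the RefSeq start of the gene along its strand; rows show replicates 3 (red), 2 (orange) and 1 (blue) and the RefSeq gene (black), bars are drawn to scale and each has a thin line at its middle so that narrow ones stay visible. Zeb2 has 40, 10 and 2 regions in the 3 rows, the 12 regions of Mbp crowd the far part of the gene, and Mbnl2 has none below the red row.

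Promoters and introns held about equal numbers of the regions of the 219 genes. By the authors' classes 541 of 1459 (37.1%) lay within 1 kb of a transcript start, against 76.9% of the 8960 regions of genes with 1 to 4 regions, and 535 (36.7%) were intronic, against 8.86%. The classes at 1 to 3 kb held 15.8% against 7.46%, distal intergenic 5.62% against 4.52%, exons 1.92% against 0.748% and 3' UTRs 1.64% against 0.882%. Genes with 2 to 4 regions lay between, with 60.4% within 1 kb and 15.0% in introns. Of the members, 215 (98.2%) had at least 1 region within 1 kb of a start and 162 had at least 2, while 193 had regions assigned to at least 2 transcripts. At 1 member, the T-cell adaptor gene Skap1, named after its values were seen, all 6 regions were intronic and more than 3 kb from a start. Of the intronic regions 511 (95.5%) lay in an intron of the assigned gene, 219 of these (42.9%) in the first intron and 121 (23.7%) in the second, beside 39.5% and 19.6% for genes with 1 to 4 regions.

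The same classes were counted in replicates 2 and 1, whose lists the rule did not use, although nearly all of these regions overlap those of replicate 3. In replicate 2 the members had 219 of 1315 regions of coding genes (16.7%), and of these 53.4% (95% Wilson interval 46.8% to 59.9%) lay within 1 kb of a start, against 81.2% (78.8% to 83.4%) for other coding genes. A further 22.8% lay at 1 to 3 kb, against 8.49%, and 15.5% (11.3% to 20.9%) in introns, against 4.84% (3.72% to 6.27%). In replicate 1 they had 31 of 351 (8.83%), and 24 of the 31 (77.4%, 60.2% to 88.6%) lay within 1 kb of a start, against 90.9% (87.3% to 93.6%) of 320, so these 2 intervals overlapped. Members thus had a lower promoter share and a higher intronic share in replicate 2 too, where the intervals did not overlap. Of their 219 regions there, 210 overlapped a replicate 3 region of the same gene, so this is no separate check of the classes. The intervals cover counting error only, because regions of 1 gene and 1 library are not independent.

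**Figure D3:**
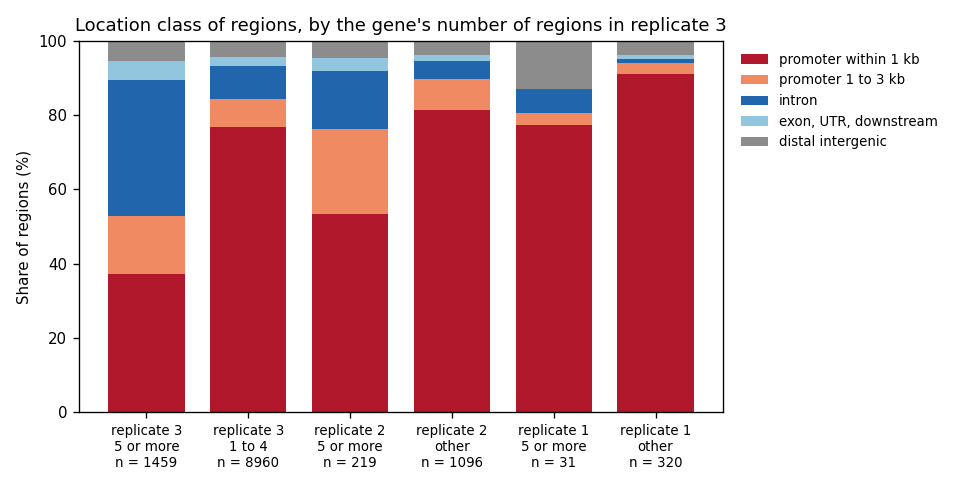
Share of regions (%) in each of the authors' location classes, for genes with 5 or more regions in replicate 3 and beside them the other coding genes, in replicates 3, 2 and 1; n is the number of regions. The red promoter segment is 37.1% against 76.9% in replicate 3, 53.4% against 81.2% in replicate 2 and 77.4% against 90.9% in replicate 1.

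Within a member the strongest region exceeded the weakest by a median of 2.09 times in fold. The strongest fold per gene had a median of 6.30, against 4.00 for genes with 1 to 4 regions, but the median over all regions was 3.85, against 3.81. A strongest of many is higher than a strongest of few by construction, and nothing is read from that difference. The weakest fold per member had a median of 2.97. The highest folds were 18.1 in a 3' UTR at Rgs3, 15.4 at Zeb2, 15.2 at Bahcc1, 14.3 at Qk and 13.7 at Cldn11. The strongest region lay within 1 kb of a start in 121 genes (55.3%) and in an intron in 54 (24.7%), and the weakest lay in these classes in 37.0% and 35.6%.

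Wide regions were found in many members. Of the 219 genes 85 (38.8%) had a region of at least 2 kb, against 181 of 6715 genes with 1 to 4 regions (2.70%), and 107 of 1459 regions (7.33%) were that wide, against 187 of 8960 (2.09%). The widest region of a member took a median of 35.6% of the gene's covered length, lay within 1 kb of a start in 161 genes and was also the strongest in 121. At Brinp3, a neuronal gene, the widest region took 10155 bp and 66.4% of the covered length, and at Hoxa10 it took 90.4%. Of the 107 wide regions 74 (69.2%) were overlapped in replicate 2, 30 of them by at least 2 separate regions, so 30 stretches of replicate 3 were several regions in the smaller list.

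Members had regions in replicate 2 more often than other coding genes. A region of replicate 2 was assigned to 119 of the 219 genes (54.3%, interval 47.7% to 60.8%), against 14.0% (13.2% to 14.9%) of the 6715 genes with 1 to 4 regions and 15.3% of all coding genes with a region in replicate 3. In replicate 1 the count was 25 (11.4%, 7.85% to 16.3%), against 4.26% (3.80% to 4.77%) of the genes with 1 to 4 regions and 4.49% of all coding genes with a region in replicate 3, and 23 members (10.5%) had regions in all 3 replicates, against 2.38% of the genes with 1 to 4 regions. In replicate 2 the share was higher at each larger number of regions in replicate 3, with 10.9%, 21.3%, 29.9% and 32.6% at 1, 2, 3 and 4 regions, 43.7% at 5, 57.1% at 6 to 7 and 73.9% at 8 or more. In replicate 1 the shares at the same numbers were 3.79%, 5.62%, 6.27%, 6.08%, 8.74%, 12.9% and 15.2%. These intervals cover counting error only. Gene length also differed between the sets, as given above, and its part in these shares was not tested.

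**Figure D4:**
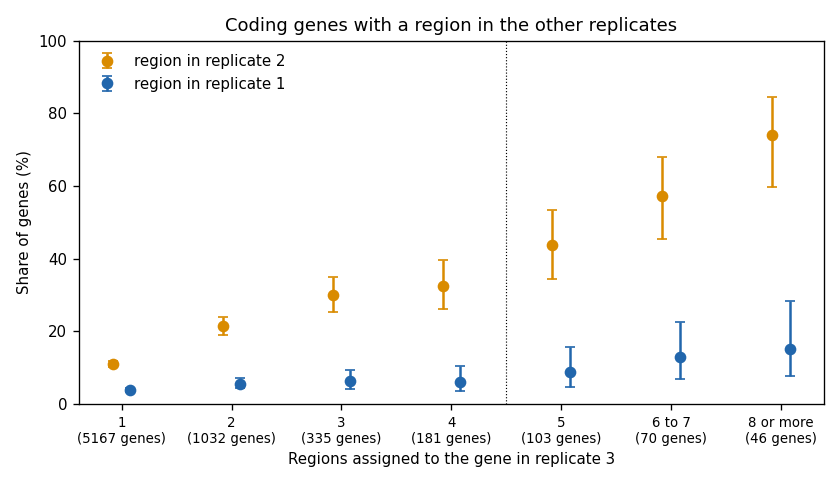
Share of coding genes (%) with a region assigned in replicate 2 (orange) or replicate 1 (blue), by number of regions in replicate 3; bars are 95% Wilson intervals, which cover counting error only, and the dotted line marks the limit of 5 regions. The orange points climb to 73.9% and the blue ones to 15.2% at 8 or more regions.

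Region by region, the share overlapped was close to the background in replicate 2 and lower than it in replicate 1 when all location classes were pooled. In replicate 2, 174 of the 1459 regions (11.9%, interval 10.4% to 13.7%) were overlapped by at least 1 bp, against 10.8% (10.2% to 11.5%) for genes with 1 to 4 regions, and in replicate 1 30 (2.06%, 1.44% to 2.92%), against 3.40% (3.05% to 3.80%). The pooled share was thus higher per gene in both replicates, but not per region. The share overlapped in replicate 2 was highest for the strongest region of a gene, at 39.3%. It was 16.9%, 9.13%, 3.65% and 5.48% for the regions of fold rank 2, 3, 4 and 5 and 3.02% for those of rank 6 or lower. Of the 174 overlapped regions, 86 were the strongest of their gene and the rest were of lower rank. Of the 119 genes with a region in replicate 2, 85 had it over their strongest region, as did 17 of the 25 with a region in replicate 1. The share also depended on width, from 1.24% of member regions under 500 bp to 69.2% of those of at least 2 kb, against 3.73% and 61.5% for genes with 1 to 4 regions. Intronic regions were overlapped in 4.67%, against 4.66%, and promoter regions in 20.7%, against 12.3%. In replicate 1 the shares by class were 4.44% of promoter regions, against 4.05%, 0 of 230 regions at 1 to 3 kb (Wilson interval up to 1.64%), against 1.65%, 0.374% of intronic ones, against 0.252%, and 4.88% of distal intergenic ones, against 2.47%. The lower pooled share in replicate 1 was thus not seen within the promoter, intronic and distal classes, but it was seen within every class of width and of fold. By width, the replicate 1 share of member regions was 0.275% under 500 bp, against 1.21%, and 13.1% at 2 kb or more, against 16.0%. By fold, it was 0.627% under 4, against 1.20%, and 9.09% at 6 or more, against 15.2%. The classes between went the same way.

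**Figure D5:**
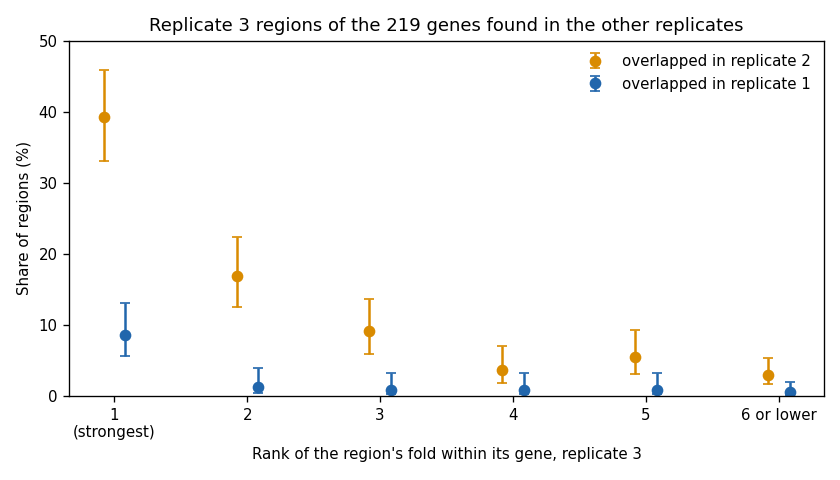
Share of the replicate 3 regions of the 219 genes (%) that a region of replicate 2 (orange) or replicate 1 (blue) overlapped by at least 1 bp, by the rank of the region's fold within its gene; bars are 95% Wilson intervals, which cover counting error only. The strongest regions reach 39.3% in replicate 2 and 8.68% in replicate 1, and regions of rank 6 or lower 3.02% and 0.549%.

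Seen from the smaller lists, nearly every member region overlapped a region of replicate 3. Of the 219 member regions of replicate 2, 210 (95.9%) overlapped a region of the same gene in replicate 3 by at least 1 bp, and all 31 of replicate 1 did. When the overlap had to reach 50% of the shorter region, 202 and 31 did. The numbers per gene were low, with 67 members at 1 region in replicate 2, 25 at 2, 17 at 3, 6 at 4 and 4 at 5 or more, and 20, 4 and 1 members at 1, 2 and 3 regions in replicate 1. The same rule in replicate 2 would choose 7 genes, and of these Zeb2, Hoxb3, Tcf4 and Mbp were among the 219. The other 3, named after their values were seen, were Ermn, a cytoskeletal protein of oligodendrocytes with 4 regions in replicate 3, Sall1 with 3 and the nuclear factor I gene Nfib with 2. Each had a region of over 6 kb in replicate 3, at 6711 bp, 10420 bp and 7118 bp. Within the RefSeq gene and a flank of 1 kb, whatever their assignment, Sall1 and Nfib had 5 regions each in replicate 3. In replicate 1 no coding gene had 5 regions.

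Beyond Zeb2, Smad7, Bahcc1, Nfia and Ncam1, the members with regions in all 3 replicates had mostly 1 or 2 regions in each smaller list. Irf2bp2, a corepressor of interferon regulatory factors, had 7 regions in replicate 3, of which 4 were distal intergenic, with 4 in replicate 2 and 2 in replicate 1. Its strongest region was distal, with a fold of 9.83, and was overlapped with folds of 5.57 and 4.00 in replicates 2 and 1, while a promoter region with a fold of 5.78 was overlapped with folds of 4.14 and 5.91. Tmeff2, a transmembrane protein with follistatin-like domains, had 10, 4 and 1 regions in replicates 3, 2 and 1. Zbtb16, a zinc finger repressor, had its strongest region in an intron, with folds of 11.3, 5.97 and 7.82 in replicates 3, 2 and 1. At Fos the region found every time was distal intergenic, with folds of 2.88, 5.22 and 5.44, while its promoter region, the strongest in replicate 3 with a fold of 6.21, was not overlapped in replicates 2 and 1. Atf7ip, a partner of a histone methyltransferase, had folds of 8.77, 5.59 and 7.15 at its promoter, and Rcbtb1 7.59, 5.42 and 6.41. Folds come from separate lists with separate backgrounds, and their sizes are not compared between replicates.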

How the data were processed

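The series holds 6 files from Runx1 ChIP-seq of mouse spinal cord, 2 for each of the 3 replicates of 1 group. Tools in the submitters' processing notes, with no order or role, are MACS2 2.1.2, Bowtie2, Picard 2.18.26, SAMtools 1.9, Trimmomatic 0.38 and FastQC, with the build GRCm38. Their settings and the control library are not stated in any source used. The group of replicate 3 was taken from its title, since its tissue field holds the antibody.

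Per the file headers, every summit in the deposited lists has a −log10 p, a −log10 q, a score and a fold enrichment, that is a linear ratio of pileup to background, from the authors' peak caller. The annotated tables of the authors add to each region its location class, intron number, transcript, gene symbol and gene type. No deposited −log10 q was below 2.00. Starts were turned to count from 1. A region with more than 1 summit entered once, at the fold of its strongest summit. A gene was a coding symbol of the tables, and 2 coding regions of replicate 3 without a symbol were left out. Overlap meant at least 1 bp. Symbols were matched to RefSeq (GRCm38.p6) for 218 of 219 members, 2 of them by a synonym, and for 6654 of 6715 other genes. Shares have 95% Wilson intervals, which cover counting error only, because regions of 1 gene and 1 library are not independent. With 1 group there is no contrast between conditions, so no test was run and no p-value is given.

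The members and the 14 gene lists (784 entries, with genes in more than 1 list) were chosen with earlier results of these data known. Named genes were the 20 members with the most regions, up to 20 with regions in all replicates, the 5 widest and 5 narrowest spans, the 5 highest folds, up to 6 members of each list and the genes with the highest and lowest fold on either side of the limit. Not every gene that this rule names is described. Alternatives were other minimum counts, limits on −log10 q and fold, joined regions, other gene assignments, stricter overlap and leaving out replicates. The scripts were tested on simulated data and run with pandas 2.3.3, numpy 2.4.6, scipy 1.17.1 and matplotlib 3.10.9 under Python 3.11.15.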

Additional observations from a re-analysis of the deposited data

How the results depend on the processing

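The list of 219 genes depends on what counts as a region. It held 400 genes at a minimum of 4 regions and 116 at 6, 60 when regions had to reach −log10 q of 5, 6 when they had to reach a fold of 5, and 89 or 34 when regions under 1 kb or 5 kb apart were joined. The number of genes moved less without distal regions (187) and by RefSeq gene body with 1 kb around it (295, of which 180 were among the 219). The genes themselves changed more by gene body, with 115 gained and 38 lost. The same rule gave 7 genes in replicate 2 and 0 in replicate 1, so the list rests on replicate 3. The share of members with a region in replicate 2 went to 26.5% at that −log10 q and 12.8% at that fold, against 54.3% as reported, and stayed at 52.5% and 52.1% under the overlap rules; the share for replicate 1 went to 5.94% and 3.65%, against 11.4%. A region in either replicate was found for 55.3%, with a range of 11.4% to 54.3% when replicate 2 or replicate 1 was left out. The promoter share of 37.1% was 55.3% for the strongest region of each gene, 43.0% at that −log10 q and 50.5% at that fold. The median fold of 3.85 was 6.30 for strongest regions, 2.97 for weakest regions and 4.71 at that −log10 q. These changes follow from counting fewer or other regions. No paired analysis was possible because all replicates belong to 1 group. Unknown depth limits what an absent region can say, and a missing region in replicate 1 or 2 does not show absence of binding.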

Other observations

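Genes of other types also reached 5 regions in replicate 3. Of 1945 non-coding or otherwise non-protein-coding genes with a region, 38 had 5 or more. The most were 15 at 3110039I08Rik, 11 at Lncppara and 11 at Mir99ahg, the host transcript of a microRNA cluster, with 3, 4 and 2 regions in replicate 2. Mir124-2hg, a host transcript of the neuronal microRNA miR-124, had 6 regions in both replicate 3 and replicate 2, and C130071C03Rik had 8, 7 and 1 in replicates 3, 2 and 1. These genes were named after their values were seen.

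Counting regions within the RefSeq gene and 1 kb around it, in place of the authors' assignment, added 115 coding genes and dropped 38 of the 218 matched members. The most regions among those added were at Hoxa3, with 14 in and around the gene and 2 assigned, and at Lrba, Ank2 and Klhl2, with 12, 11 and 11 and 4 assigned each. Among those dropped were Fos and Irf2bp2, with 1 and 2 regions in and around the gene and 6 and 7 assigned. These were also named after their values were seen.

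By chromosome, the share of coding genes with a region that were members was highest on chromosome 18 (10 of 198, 5.05%), beside 3.16% over all chromosomes. It was lowest on chromosome X (3 of 177, 1.69%), leaving out Y with 1 such gene. Chromosome 3 (4.46%) and chromosome 5 (1.70%) lay close to these extremes, so neither stood apart. These chromosomes were named after their values were seen. In all, 6 pairs of members lay under 100 kb apart. Members with a region in replicate 2 had a median strongest fold of 6.86 and a median widest region of 2082 bp in replicate 3, against 5.36 and 1120 bp for members without one.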
